A study of Mus musculus with 4 samples.

Results

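Ifi202b is a mouse gene of the p200 family, a group of interferon-inducible genes that lie side by side on chromosome 1. It was singled out here because its level fell with PJ34 in Trp53-/- cells, and Ifi203, Ifi204, Ifi205 and Aim2 were added as its relatives. The rule took every probe that the array files name after 1 of these 5 genes. It found 9 of the 55681 probes on the array, with 2 for Ifi202b, 4 for Ifi203, 2 for Ifi204, 1 for Aim2 and 0 for Ifi205. Since Ifi202b was selected on the Trp53-/- response, its values in Trp53-/- cells, its difference between genotypes and its untreated levels are given as a description with no test. Its response in wild-type cells came from other arrays and was tested, as were all responses of Ifi203 and Ifi204. That test is not fully independent of the selection, since the spread was estimated over the arrays of both genotypes.

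Proteins of the p200 family carry domains that bind DNA, and most also have a pyrin domain through which they assemble with other proteins. Aim2 recognizes DNA in the cytosol and starts the inflammasome, while the product of Ifi202b lacks the pyrin domain and is known as an inhibitor of Aim2. Ifi204 and Ifi203 encode nuclear members that have been linked to DNA sensing and to growth control. Interferons induce these genes through the STAT and IRF factors, and the Ifi202b protein has been described as a binding partner of p53. Levels of Ifi202b are known to differ between inbred mouse strains.

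The RNA came from neural stem/progenitor cells (NSPCs) of Slc:ICR mouse embryos at embryonic day 13.5, grown with EGF and FGF-basic, and from such cells with the Trp53-/- genotype, for which the labels give the same strain. Cells were left untreated or given 20 μM PJ34, an inhibitor of poly(ADP-ribose) polymerases, for a time that is not given for the arrays in the sources used here. On each of 4 two-colour arrays the PJ34 RNA carried Cy5 and the untreated RNA of the same genotype Cy3, with 2 arrays for wild-type and 2 for Trp53-/-. Each RNA was prepared independently, the dyes were not swapped, and every array had its own slide and scan. Per the methods the Trp53 line came from heterozygous mice of a repository, and whether wild-type and Trp53-/- embryos were littermates is not given in the sources used here. Genotype therefore cannot be told apart from other genetic differences between the embryos, and an effect of PJ34 cannot be told apart from a dye preference of a probe.

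Between 21505 and 24540 probes were well above background in the control channel of an array and between 26081 and 27156 in the PJ34 channel, and 0 spots were saturated. The correlation of log2 ratios across genes was 0.702 between both arrays of wild-type and 0.645 between both of Trp53-/-, where genes are not independent replicates. The probe for Trp53 gave a mean control level of 8.40 in wild-type and 7.69 in Trp53-/-, and the part of the transcript it reads was not compared with the deleted part. All 12 markers of neural stem/progenitor cells were well above background in both channels of every array. Of 16 microglia and macrophage markers, 9 were above background in no channel, among them Aif1, Cx3cr1, Ptprc, Tyrobp and Adgre1. Trp53-/- replicate 2 stood apart in its sex-linked genes. On it the PJ34 over control log2 ratio was 4.22 for Eif2s3y, 3.12 for Ddx3y and -1.39 for Xist, against -0.20 to 0.84 for these genes on the other 3 arrays. Without PJ34, Eif2s3y and Ddx3y were also called lower in Trp53-/- than in wild-type cells (log2 differences -2.59 and -2.05; limma, q = 0.00877 for both). Whether embryos of different sex went into these channels, and their part in the p200 levels, was not tested, and the responses in Trp53-/- cells are given with and without it.

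Each probe is 60 bases long. Probe sequences are shown because members of this family are similar enough that 1 probe might read several of them, and the first 30 bases are printed, 5′ to 3′, all on chromosome 1 of build mm9.

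Ifi202b probe 1, chr1:175892953-175893982, minus strand, split over this stretch: attgacctcaaatgcagatgagtggtttct
Ifi202b probe 2, chr1:175892789-175892848, minus strand: ctgctcaaatataatacatacaacatccag
Ifi203 probe 2, chr1:175850536-175850595, minus strand: cacaattgctttctgatctgtactgacagt
Ifi204 probe 1, chr1:175677647-175677706, minus strand: agtcgggagaacctctctggaaccatactt
Mndal probe, chr1:175787550-175787609, minus strand: agcatcaactgtcctgtcaagcacaaaaaa
Aim2 probe, chr1:175396036-175396095, plus strand: ctaagaaatcagtgatattggggtatgtga

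Over 235 pairs of p200 probes with different names, the longest run of identical bases was 11 of 60. Over the 42 pairs that include a probe of Ifi202b it was 9. The comparison covers the probes with each other and not the transcripts, for which no sequences were used here.

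Promoters are shown because several members moved together. They were taken from RefSeq, build GRCm38.p6, as the 250 bases before and 50 after each listed start, and were searched on both strands for GAAANNGAAA, a core of the interferon-stimulated response element. The core was present for 9 of 12 p200 genes with an entry, and for 3.99% of all genes in the table. Capitals mark it, with 10 bases on either side.

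Ifi203, chr1:173942508-173942537, minus strand: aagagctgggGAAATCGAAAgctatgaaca
Mndal, chr1:173880204-173880233, minus strand: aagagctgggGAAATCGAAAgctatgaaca
Ifi205, chr1:174031870-174031899, minus strand: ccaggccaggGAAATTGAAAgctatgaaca
Ifi208, chr1:173673597-173673626, plus strand: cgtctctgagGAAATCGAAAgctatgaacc

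The stretches of Ifi203 and Mndal were identical over these 30 bases. Ifi202b, Ifi209 and Aim2 held no match in their windows, and Ifi204 had no entry. The window of Ifi202b held 1 copy of TTCNNNGAA, the form of a gamma-activated site, which 9.55% of genes have and which is capitalized below with 10 bases on either side. No window of the family held a p53 half-site, which 9.55% of genes also have. A match describes letters and not binding.

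Ifi202b, chr1:173982974-173983002, minus strand: ctgtcatgatTTCTCAGAAtaactactga

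Of the 9 member probes, 5 were well above background in both channels of all 4 arrays, 2 were so only on some arrays, and 2 were not on any. A probe entered the tests when at least 1 channel was above background on both arrays of a genotype, which kept 7 member probes and 27036 probes in all. Each gene was read from its brightest kept probe, and 3 members were among the 20186 genes tested: Ifi202b, Ifi203 and Ifi204. The single Aim2 probe was above background in no channel, with normalized log2 intensities between 6.00 and 6.30. Ifi205 had no probe of its name. These 2 members thus gave no measured response.

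Levels below are log2 intensities after normalization between arrays, and each gene is compared only with itself. The control level of Ifi202b was 7.94 and 9.70 on the 2 wild-type arrays and 11.40 and 11.46 on the 2 Trp53-/- arrays. Its PJ34 level was 6.94 and 9.65 in wild-type and 9.65 and 10.004 in Trp53-/-. The untreated Trp53-/- channels stood above all others, while wild-type replicate 2 without PJ34 lay among the PJ34-treated Trp53-/- channels. By their means, the order was untreated Trp53-/- at 11.43 ± 0.04 (SD, n = 2), PJ34 Trp53-/- at 9.83 ± 0.25, untreated wild-type at 8.82 ± 1.25 and PJ34 wild-type at 8.30 ± 1.91. PJ34 Trp53-/- and untreated wild-type did not differ beyond their spread. The spread was widest between the 2 wild-type arrays. Both channels of an array are paired, so these SDs do not measure the spread of the PJ34 response, which is given below as ratios.

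**Figure D1:**
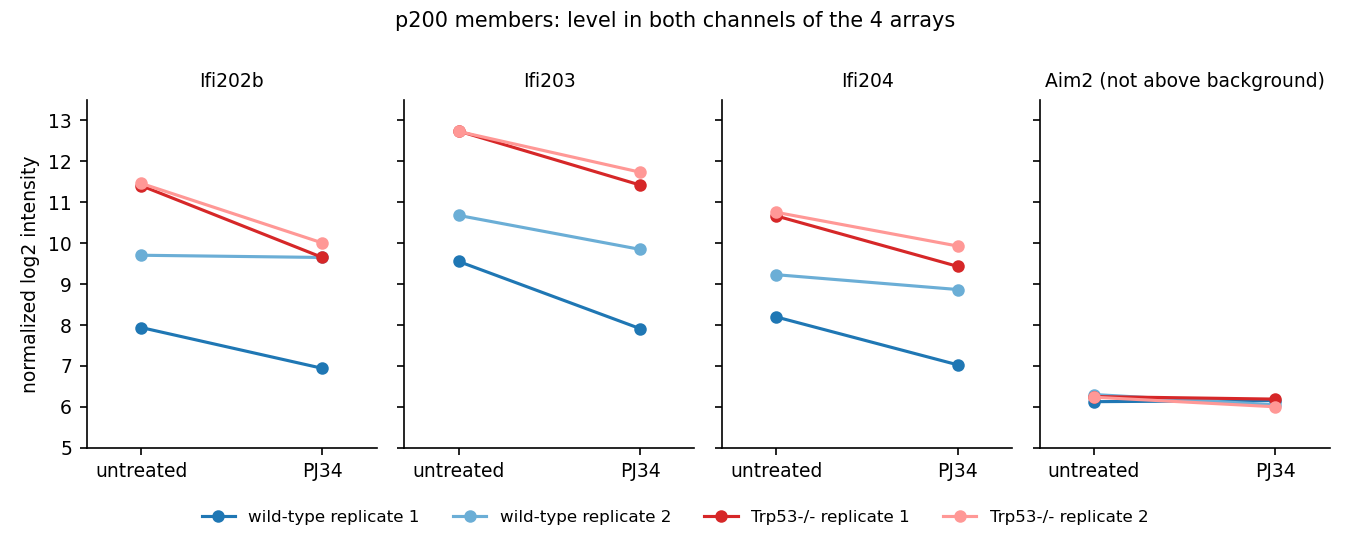
Normalized log2 intensity (vertical axis) of Ifi202b, Ifi203, Ifi204 and Aim2 in the untreated and PJ34 channels, with 1 line per array. The untreated Trp53-/- points lie highest for the first 3 genes, wild-type replicate 1 lies lowest, and Aim2 stays between 6.00 and 6.30 on every array.

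Without PJ34, both tested members were brighter in Trp53-/- than in wild-type cells. The Y-linked genes Eif2s3y and Ddx3y were lower there, as given above. Ifi203 had control levels of 9.55 and 10.68 in wild-type and 12.74 and 12.73 in Trp53-/-. On average Ifi203 was 6.13-fold higher in Trp53-/- cells (log2 difference 2.62, SE 0.36, limma, q = 0.0186). Ifi204 had control levels of 8.20 and 9.23 in wild-type and 10.66 and 10.75 in Trp53-/-. On average Ifi204 was 3.99-fold higher in Trp53-/- cells (log2 difference 2.00, SE 0.34, limma, q = 0.0241). For Ifi202b the corresponding difference was 2.61, or 6.11-fold, given without a test. To be called, a gene had to change more than 2-fold with both p and q (Storey's method, over all genes) under 0.05, and 1.85% of all genes were called higher and 1.93% lower in this comparison. Both tested members, Ifi203 and Ifi204, were called higher.

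These calls rested on the spread of very few arrays. Without either Trp53-/- array no gene at all was called, and the q of Ifi203 became 0.16 without replicate 1 and 0.233 without replicate 2. The log2 differences themselves hardly moved, to 2.61 and 2.62. Without wild-type replicate 1 the differences were smaller, at 2.05 for Ifi203, 1.48 for Ifi204 and 1.73 for Ifi202b. Without wild-type replicate 2 they were larger, at 3.18, 2.51 and 3.49.

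The other probes of the members gave the same order of genotypes. The second Ifi202b probe was at 7.66 and 9.25 in untreated wild-type and at 11.27 and 10.99 in untreated Trp53-/- cells, and is described without a test. In the limma fit over all kept probes, Ifi203 probe 1 was 2.30 higher on the log2 scale (q = 0.0242). Probe 3 was above background in the control channel of 1 of the 2 wild-type arrays, at 7.01, and was at 8.31 and 8.16 in untreated Trp53-/- cells. Ifi203 probe 4 was above background in the control channel of neither wild-type array and of both Trp53-/- arrays. Its mean in untreated Trp53-/- cells was 7.05. Set against the lowest signal above background on the wild-type arrays, this was at least 1.51-fold higher. Probes 3 and 4 passed the filter only through the Trp53-/- arrays, where they are brighter. Their order of genotypes is therefore a description with no test. The other Ifi204 probe was above background nowhere, so Ifi204 rests on 1 probe.

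Among the relatives outside the rule, 7 other p200 genes had a probe and 3 a kept one. Mndal, whose promoter stretch matches that of Ifi203, was at 6.61 and 6.88 in untreated wild-type and at 7.84 and 8.10 in untreated Trp53-/- cells. It was 2.34-fold higher in Trp53-/- (log2 difference 1.23, SE 0.19; limma, q = 0.0223). Ifi209, which the array calls Pyhin1, had 3 probes, of which only the brightest was above background in a control channel. By that probe Ifi209 was 2.18-fold higher (limma, q = 0.0289). Ifi208, called Pydc3 on the array, went the other way without being called, with control levels of 9.97 and 9.90 in wild-type and 9.50 and 9.38 in Trp53-/- cells. The genes Ifi211, Ifi213, Ifi214 and AI607873 were above background in no channel.

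Probes without a gene name in the cluster were read too. A probe for a transcript at chr1:175711138-175711197, which the files describe as an Ifi203 gene without naming it so, was 2.04 higher on the log2 scale in untreated Trp53-/- cells (limma over probes, q = 0.0196). RefSeq places a pseudogene of Ifi203 between Ifi204 and Mndal. Of 5 probes for noncoding regions inside the cluster, 3 were called higher, all on the minus strand like Ifi203 and Ifi204. The minus-strand probe for chr1:175653557-175671940 was at 0.37 and not called (limma, q = 0.186). That region overlaps the called ones at chr1:175654606-175672031 and chr1:175660642-175671878. The region chr1:175705225-175717250 was 2.47 higher by its minus-strand probe (limma, q = 0.0308) and 0.40 higher by its plus-strand probe (limma, q = 0.121). Outside the cluster and within 2 Mb of it, Kcnj10, a potassium channel gene, was among the genes called higher, at 1.21 (limma, q = 0.0259). Cadm3 and Ackr1, which lie nearer to the cluster on the same side, were at 0.17 and 0.05 and were not called. In all, 42 genes and unnamed probes not of the family had a kept probe in this stretch, the 5 noncoding ones inside the cluster included. Their median difference was 0.12, against 0.00 over all genes.

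**Figure D2:**
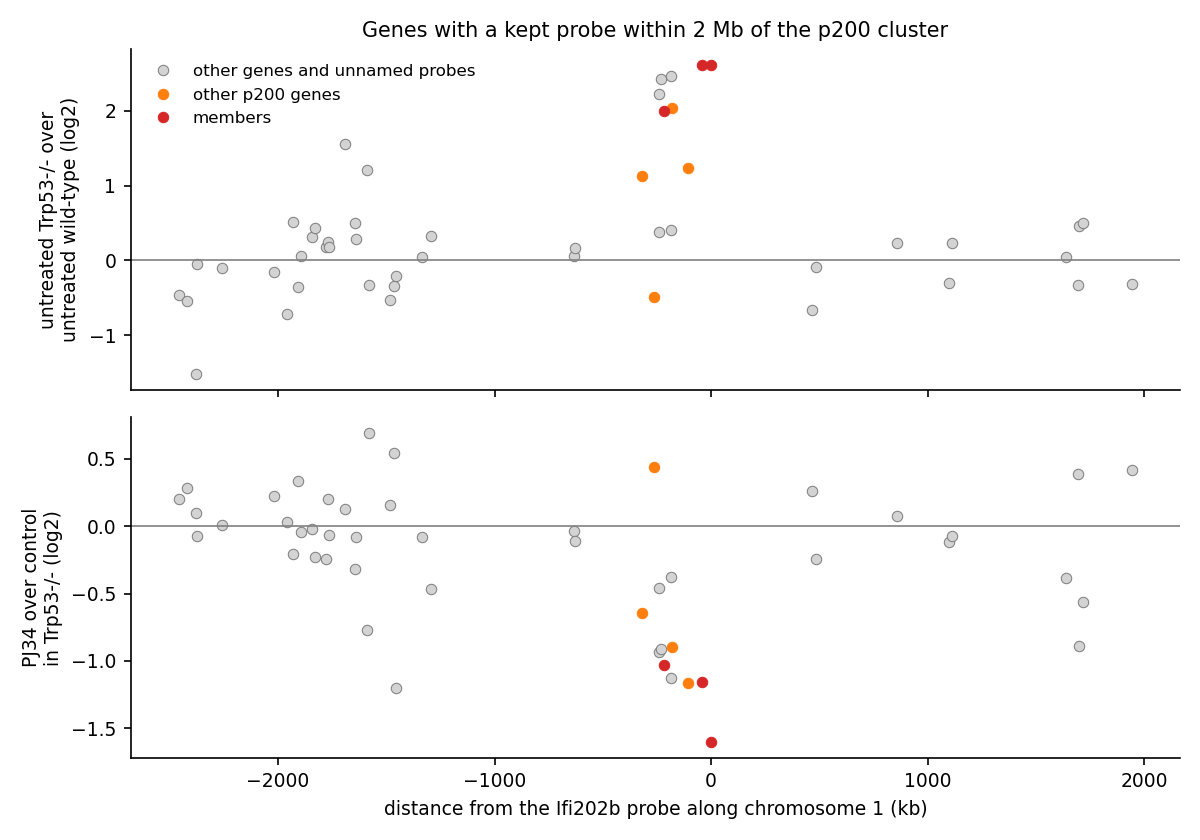
Log2 difference between untreated Trp53-/- and wild-type cells (top) and log2 ratio of PJ34 over control in Trp53-/- cells (bottom) for genes and unnamed probes with a kept probe, against their distance from the Ifi202b probe in kb. In the top panel the 3 members reach 2.00 to 2.62 and Ifi208 lies below 0 among them, and in the bottom panel the 3 members lie between -1.03 and -1.61.

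Of the members, Ifi203 was called lower with PJ34 in wild-type cells, and the ratios differed between the arrays. The log2 ratio of PJ34 over control for Ifi203 was -1.64 and -0.83 on the 2 wild-type arrays. Ifi203 fell 2.35-fold on average (mean log2 ratio -1.23, SE 0.16, limma, q = 0.000458). Ifi204 gave -1.17 and -0.36. Its mean of -0.77 (SE 0.17; limma, q = 0.00564) was below 0 but, at 1.70-fold, under the 2-fold limit of a call. Ifi202b gave -0.997 and -0.054, a mean of -0.53 (SE 0.18; limma, q = 0.0343) or 1.44-fold, so its fall lay on 1 array. In wild-type cells, 1 of 3 members was called lower and 0 higher, while 0.213% of all genes were called lower and 0.287% higher.

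In each of these genes wild-type replicate 1 had the lower control level and the larger fall. Without wild-type replicate 1 no member was called, Ifi203 being at -0.83, and without replicate 2 both Ifi203 and Ifi204 were, at -1.64 and -1.17. Ifi203 was also lost when the probes of a gene were averaged, which gave -0.57 and takes in its 2 dim probes. Ifi203 probe 1, above background in every channel, gave -1.32 and -0.39 in wild-type. Its mean of -0.85 was under 2-fold, so the call rests on probe 2. Probe 3 was above background on wild-type replicate 2 alone, where it gave -0.35, and probe 4 on neither wild-type array.

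In Trp53-/- cells the members with a kept probe had negative mean log2 ratios. Ifi202b, which was chosen on this value, gave log2 ratios of -1.75 and -1.46, a mean of -1.61 ± 0.21 (SD, n = 2) or 3.04-fold. Its second probe gave -1.83 and -1.56. Ifi203 gave -1.32 and -0.99 and was called lower by 2.23-fold (mean -1.16, SE 0.16; limma, q = 0.00102). Ifi204 gave -1.23 and -0.82 and lay just inside the limit of a call at 2.04-fold (mean -1.03, SE 0.17; limma, q = 0.00192). Of all genes, 0.272% were called lower and 0.0892% higher in Trp53-/- cells, and both tested members were called lower. Without Trp53-/- replicate 1, Ifi203 and Ifi204 were at -0.99 and -0.82 and no longer called, and Ifi202b was at -1.46. With the mean of its probes Ifi203 was at -0.83 and not called either. Without replicate 2, the array whose channels differed in sex-linked genes, they were at -1.32 and -1.23 and Ifi202b at -1.75.

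**Figure D3:**
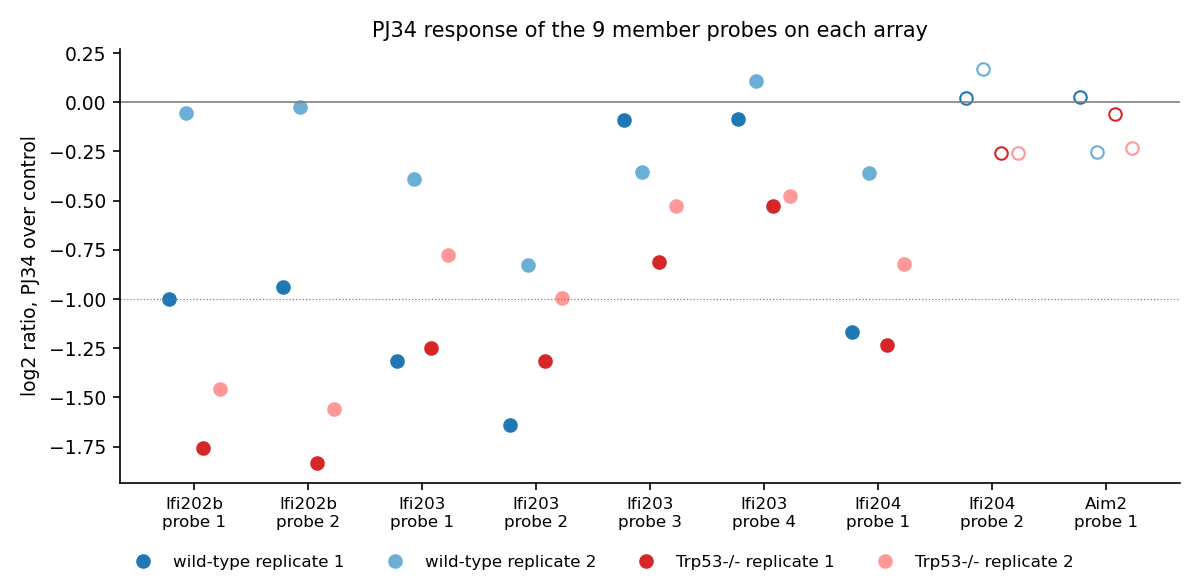
Log2 ratio of PJ34 over control (vertical axis) for the 9 member probes, with 1 point per array, filled for kept probes and open for the others. The dotted line marks a 2-fold fall. Both Ifi202b probes lie lowest on the Trp53-/- arrays, at -1.46 to -1.83, and near 0 on wild-type replicate 2.

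Of the 3 other p200 genes with a kept probe, 1 was called lower in Trp53-/- cells, Mndal. Mndal was at -0.43 and -0.42 in wild-type and at -1.28 and -1.05 in Trp53-/-. It was called lower in Trp53-/- cells, by 2.24-fold (mean -1.17, SE 0.09; limma, q = 7.06e-05), and its wild-type mean of -0.42 was not more than 2-fold (limma, q = 0.00621). Ifi209 gave -0.01 in wild-type and -0.65 in Trp53-/- cells (limma, q = 0.492 and 0.00243), neither of them a call. Its other kept probe was above background only in the PJ34 channels of the Trp53-/- arrays. It went the other way there, at 0.33 and 0.23. Ifi208 had a mean of 0.18 in wild-type and 0.44 in Trp53-/- cells and was not called.

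The response of the tested members did not differ detectably between genotypes. The difference, wild-type minus Trp53-/-, was -0.08 for Ifi203 (SE 0.23; limma, q = 0.672) and 0.26 for Ifi204 (SE 0.23; limma, q = 0.491). The sign of both differences turned when single arrays were left out, Ifi203 running from -0.48 to 0.33 and Ifi204 from -0.14 to 0.67. For Ifi202b it was 1.08, as a description, and it ranged from 0.61 without wild-type replicate 2 to 1.55 without wild-type replicate 1. Among all genes 0.436% were called with the larger value in wild-type and 0.0396% with the smaller, and neither Ifi203 nor Ifi204 was called, in any setting tried. Mndal had a difference of 0.74 (SE 0.13; limma, q = 0.0207), which was under 2-fold.

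The size of the PJ34 responses depended on how the dyes were balanced. Where each array was only centred on its median, without a curve over intensity, the median of all tested genes moved to 0.46 in wild-type and 0.63 in Trp53-/- cells and no member was called. Relative to that median, Ifi202b was at -0.46 and -1.39, Ifi203 at -1.10 and -0.86, and Ifi204 at -0.72 and -0.84 in wild-type and Trp53-/- cells. Under this centring 99.8% of calls in wild-type and 99.9% in Trp53-/- were increases, against 57.4% and 24.7% as reported. With the log ratios of the scanner software, increases were 68.1% and 71.8% of calls, and Ifi203 and Ifi204 in Trp53-/- cells were at -1.15 and -1.08 with q of 0.0601 and 0.0824. All 3 members stayed below 0 in both genotypes in every setting tried, Ifi202b in wild-type only just so under median centring.

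**Figure D4:**
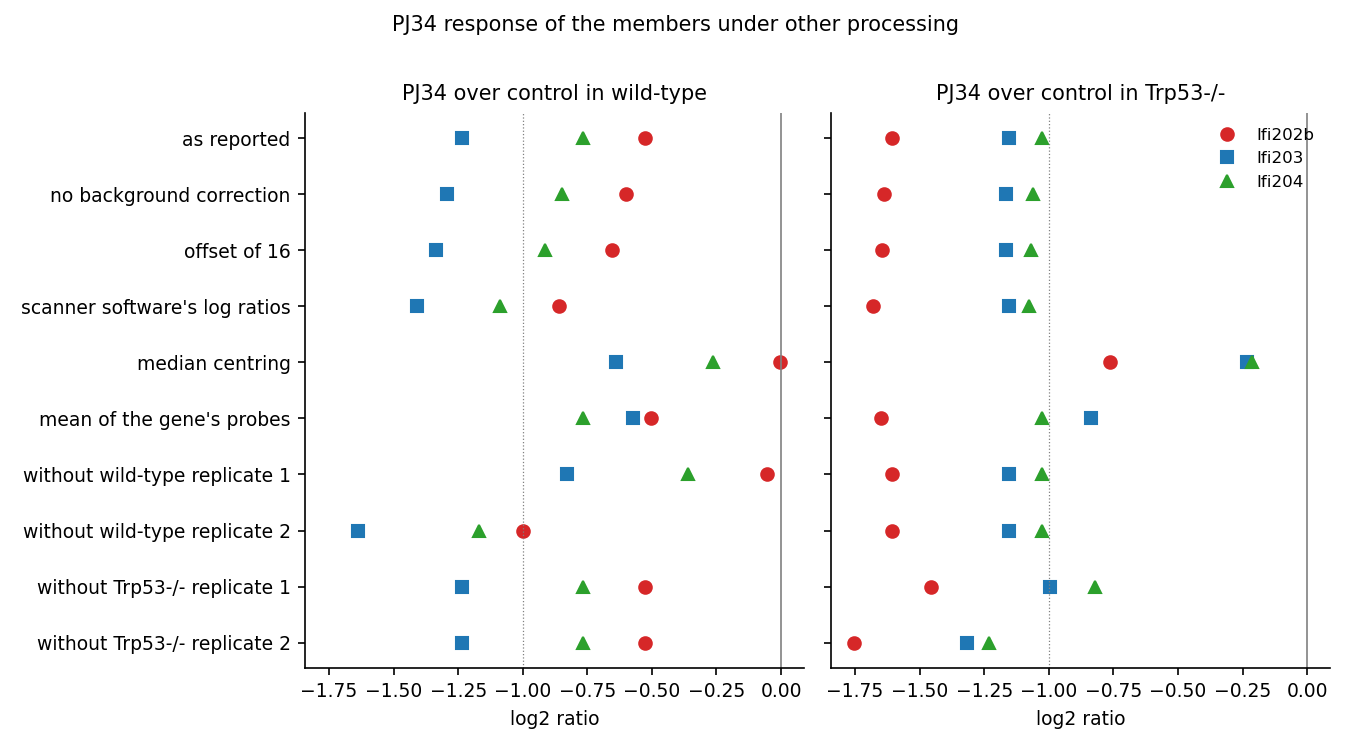
Mean log2 ratio of PJ34 over control (horizontal axis) of Ifi202b, Ifi203 and Ifi204 in wild-type (left) and Trp53-/- cells (right) under 10 ways of processing. The dotted line marks a 2-fold fall. Median centring draws every member toward 0, and in wild-type the 2 arrays left out in turn give the widest range for Ifi202b, from -0.054 to -0.997.

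The 5 profiles most like that of Ifi202b came from its own cluster, and those at ranks 6 to 10 from genes on other chromosomes. Likeness was measured as the Euclidean distance between profiles over the 8 channels, each centred on its own mean, among 20185 other genes. The nearest was the minus-strand noncoding region at chr1:175705225-175717250 with a distance of 0.87. Ifi204 followed at 1.06, another noncoding region at chr1:175654606-175672031 at 1.08, Ifi203 at 1.38 and the unnamed transcript described as an Ifi203 gene at 1.42. Rank 6, a gene on chromosome 5, was hardly farther at 1.43, and rank 10, on chromosome 8, was at 1.66. The likeness was therefore not particular to the cluster. The median distance over all genes was 4.14. Mndal and Ifi209 ranked 173 and 167, and Ifi208 ranked 16888. The channels share arrays and cultures, so these distances describe the 4 arrays and carry no test.

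Few other genes of the interferon pathway were called. Some that were not called had the same signs as Ifi203 and Ifi204, higher without PJ34 in Trp53-/- and lower with it. Examples are Socs1 (0.66 and -0.51), Ifi27 (0.78 and -0.49) and Ddx58 (0.76 and -0.36), the last 2 chosen after their values were seen. The q of their untreated differences was 0.0521, 0.123 and 0.0498 (limma). Of 67 interferon-stimulated genes on the array, 43 had a kept probe, and their median untreated difference was -0.01, beside 0.00 for all genes. These untreated differences were positive for 21 genes and negative for 22, and the PJ34 ratios in Trp53-/- cells positive for 23 and negative for 20. Of the 43 genes, 0 were called higher and 2 lower without PJ34, the class I histocompatibility genes H2-D1 and H2-K1, which present peptides to T cells. H2-D1 had control levels of 9.77 and 10.05 in wild-type and 6.57 and 6.77 in Trp53-/- cells, a 9.44-fold difference (log2 difference -3.24; limma, q = 0.0078). H2-K1 was 1.77 lower on the log2 scale in Trp53-/- cells (log2 difference -1.77; limma, q = 0.0109). The genes Ifit1, Ifit3, Oas2, Mx1 and Mx2, which interferons induce strongly, were above background in no channel.

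With PJ34 the median of the 43 interferon-stimulated genes was 0.03 in wild-type and 0.01 in Trp53-/- cells, beside 0.03 for all genes in both. None was called in wild-type, and H2-D1 was called higher in Trp53-/- cells. Its log2 ratios there were 0.28 and 1.83, so that increase lay on replicate 2, the array whose channels differed in sex-linked genes.

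The interferons themselves were dim, with Ifnb1, Ifna4, Ifne and Ifng above background in no channel, and 9 of 15 genes for interferons and their receptors had a kept probe. None of these 9 was called in any comparison. Ifnar1, a chain of the receptor for type I interferons, had the largest PJ34 ratio of this list in both genotypes, at 0.72 and 0.66 (limma, q = 0.000498 and 0.00126), under 2-fold. Of 14 kept genes for interferon signalling, 0 were called, and 13 had a positive untreated difference, with a median of 0.26. Stat2, a factor that carries the type I interferon signal, was at -0.55 in wild-type (limma, q = 0.00413), and Socs1, an inhibitor of the pathway, was at -0.51 in Trp53-/- cells (limma, q = 0.00259), both under 2-fold.

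Genes that act beside Aim2 were also read. Of 22 kept genes for cytosolic DNA sensing, 0 were called, and their median untreated difference was 0.01. Polr3g, a subunit of RNA polymerase III, was at -0.60 with PJ34 in wild-type cells and Cgas, the sensor that makes cyclic GMP-AMP, at 0.72 in Trp53-/- cells (limma, q = 0.00272 and 0.000733). Of 8 kept inflammasome genes, Il18 was called lower with PJ34 in both genotypes. Il18 encodes a cytokine that the inflammasome releases, and its log2 ratios were -1.29 and -1.09 in wild-type and -1.71 and -1.28 in Trp53-/- cells (limma, q = 0.000137 and 7.06e-05). Its untreated level did not differ detectably, at 9.62 in wild-type and 9.45 in Trp53-/- cells. Nlrp1a was 1.07 lower on the log2 scale in untreated Trp53-/- cells (log2 difference -1.07; limma, q = 0.0279).

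**Figure D5:**
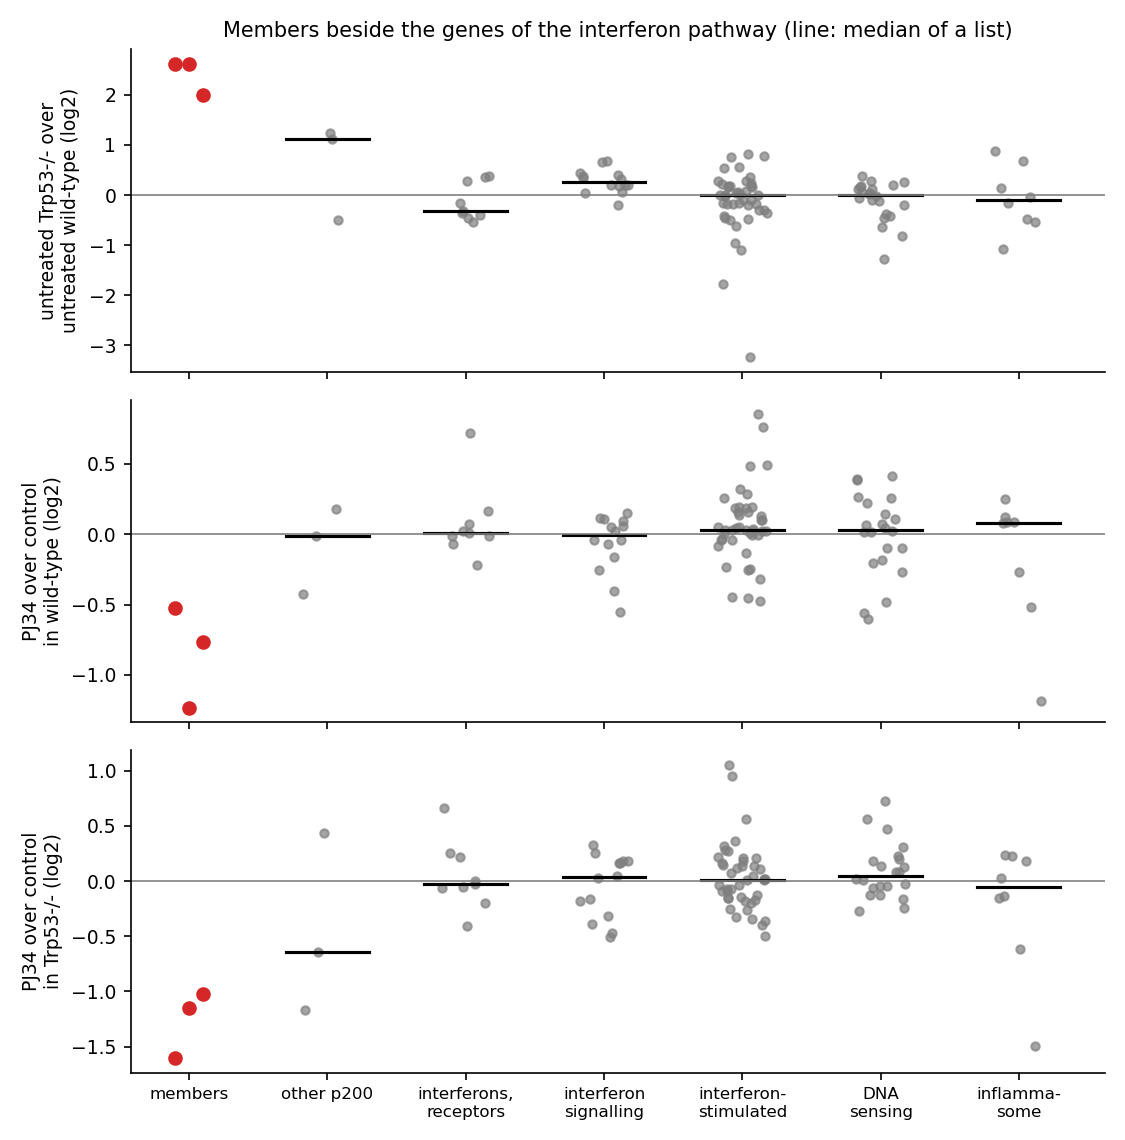
Log2 differences of the 3 members with a kept probe (red) and of the kept genes of 6 interferon-related lists (grey, with the median as a line) for untreated Trp53-/- over wild-type (top), PJ34 over control in wild-type (middle) and in Trp53-/- cells (bottom). The members lie at 2.00 to 2.62 in the top panel, where the median of the interferon-stimulated genes is -0.01.

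Markers of other cells moved with the untreated difference in part. In bulk RNA, fewer cells of a type and less RNA per cell cannot be told apart. The summed control intensity of 6 astrocyte markers was 1898 and 3405 in wild-type and 3384 and 3366 in Trp53-/- cells. Gfap and S100b were called higher in Trp53-/- (log2 differences of 2.38 and 1.89). Of the 6 untreated differences, 4 were positive and 2 negative. The sum of 8 oligodendrocyte markers was 42123 and 40225 in wild-type and 51488 and 44484 in Trp53-/-. Mbp and Mag were among those called higher (1.98 and 1.58), and of the 8 untreated differences 6 were positive and 2 negative. With PJ34 in Trp53-/- cells, Mag was among those called lower, at -1.36, as were Ifi203, Ifi204 and Mndal but not Ifi208 and Ifi209. The sum of 16 microglia and macrophage markers ran the other way, from 6904 and 8068 in wild-type to 5242 and 4626 in Trp53-/-. The part of these markers in the p200 levels was not tested.

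Markers of the remaining cell types were as follows. The summed control intensity of 8 lymphocyte markers was 4883 and 3927 in wild-type and 2139 and 1969 in Trp53-/-, and that of 8 endothelial markers 8823 and 8391 against 3900 and 3512. Cd4 and Kdr were called lower in untreated Trp53-/- cells, while 5 of the lymphocyte and 6 of the endothelial markers were above background in no channel. The sums of 8 fibroblast and mesenchymal markers overlapped between genotypes, at 1797 and 1677 in wild-type and 1797 and 1703 in Trp53-/-, and 5 of these genes were above background nowhere. Of the 3 with a kept probe, Thy1 was called higher in untreated Trp53-/- cells, at 1.09, and the other 2 differences were negative. Of 8 neuron markers, all with a kept probe, Rbfox3 was called higher in untreated Trp53-/- cells, at 1.24. Of the 8 untreated differences, 5 were positive and 3 negative. The summed control intensity of these markers ran the other way, from 11499 and 9334 in wild-type to 7592 and 7673 in Trp53-/-. None of the 12 neural stem/progenitor markers was called in any comparison.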

How the data were processed

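The 4 arrays were scanned and extracted by the authors with Agilent Feature Extraction 10.7.3.1. The intensity values deposited by the authors are the mean of each spot and the median of its local background per colour. Log10 ratios and processed signals, also deposited by the authors, were used in alternatives only, the ratios after conversion to log2. A deposited table with 4 columns named by number was not used here, since no column could be matched to an array.

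With limma 3.58.1 in R 4.3.3, background was corrected by normexp (offset 50, all spots) and ratios by loess within arrays, control and outlier spots having no weight. Outlier spots (228 to 276 per array) were dropped and spots of a probe averaged. The filter kept 48.56% of probes. Symbols came from RefSeq for 26300 of 55681 probes. Genotype means were fitted over all 4 arrays (2 residual degrees of freedom, 10.28 after moderation), and control levels were compared after quantile normalization of mean intensities. The study's criteria for a call were kept, with q by Storey's method over all genes, or over all kept probes where single probes are given. With 2 arrays a genotype, the number of arrays limits the precision.

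The members and the 15 gene lists were chosen with earlier results of these data known. Named are all members, Trp53, the called genes of each list (at most 3 per direction, or the largest ratio where none was called) and the 5 profiles nearest to Ifi202b. The untreated calls of list genes and the neighbours Kcnj10, Cadm3 and Ackr1 were named after their values were seen, and some genes that the rule would name are not reported here. On simulated data of 20186 genes with 200 changed by 2 on the log2 scale, 190 were recovered in the wild-type contrast, 173 in the difference and 113 in the untreated comparison, with 0, 1 and 1 false calls. Alternatives were other background corrections, centring, filters, probe averaging, Benjamini-Hochberg adjustment, each genotype alone, a replicate block, a separate-channel model, and each array left out in turn.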

Additional observations from a re-analysis of the deposited data

How the results depend on the processing

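In wild-type cells 1 member was called, against 0 with median centring, 0 with the mean of a gene's probes, and 0 to 2 with arrays left out in turn. In Trp53-/- cells 3 passed, with Ifi202b counted although it was chosen on this value, against 0 with the scanner software's log ratios, 0 with median centring, 2 with the mean of a gene's probes (Ifi203 lost), and 1 to 3 with arrays left out. No member passed in the difference, against 1 without a filter and 0 to 1 with arrays left out, each time Ifi202b, which is not tested there. In untreated cells 3 passed with Ifi202b, against 2 without a filter, with Benjamini-Hochberg and with the scanner's processed signal (Ifi203 and Ifi204), and 0 to 3 with arrays left out. The difference for Ifi203, -0.08, became 0.26 with the mean of its probes and ran from -0.48 to 0.33 with arrays left out, and that for Ifi204, 0.26, became -0.011 with the scanner's ratios, -0.054 with median centring and ran from -0.14 to 0.67. The causes were not tested, apart from fewer arrays or other probes entering the fit.

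All genes called in wild-type numbered 101, against 558 with the scanner's ratios, 1179 with median centring and 165 with an offset of 16. In Trp53-/- they numbered 73, against 531, 3407 and 129, and 165 without Trp53-/- replicate 1. In the difference they numbered 96, against 0 with the scanner's ratios, 40 with an offset of 16 and 163 without Trp53-/- replicate 1, and 72.3% instead of 91.7% had the larger value in wild-type under median centring. In untreated cells they numbered 764, against 1162 with an offset of 16, 1301 with the scanner's processed signal (32.5% instead of 49% higher), 1547 without wild-type replicate 2 and 0 without either Trp53-/- array.

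Same-numbered arrays did not deviate together (r = -0.18 for ratios and 0.08 for control levels across genes), so the numbers were taken as names. With the replicate block, 1 member, the untested Ifi202b, passed in the difference, and calls over all genes were 101, 76 and 1006 in wild-type, Trp53-/- and untreated cells. A crossed pairing, chosen after seeing the data, gave the same 1 member in the difference, with 101 calls over all genes in wild-type, 76 in Trp53-/- and 106 in the difference. Dim probes limit Aim2 and the second Ifi204 probe, for which no response could be read.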
